A study of Homo sapiens with 4 samples.

Results

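The 9 genes described here encode the machinery of MHC class I antigen presentation and were chosen by symbol: HLA-B, HLA-C, HLA-E, HLA-F, B2M, TAP1, TAP2, TAPBP and NLRC5. They are 9 of the 60664 genes in the table, and all 9 were among the 16544 genes with enough reads to be tested. The cells were Hs578T, a human triple-negative breast cancer cell line with mesenchymal features. RNA was sequenced in 2 libraries of the group labelled empty and in 2 libraries with overexpressed TFCP2L1, which encodes a DNA-binding factor related to CP2. The deposited table calls the empty group FLAG. The labels give no promoter or vector for the transgene and no time after its delivery, and do not say if the lines were clones or if replicate libraries stem from separate cultures. Values of p therefore reflect library-to-library spread alone, possibly only technical spread. In bulk RNA, a change in the share of cells with a transcript and a change in its amount per cell cannot be told apart.

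Every nucleated cell shows peptides from its own proteins to CD8 T cells on class I molecules, each made of a heavy chain (the HLA genes) and the light chain beta-2-microglobulin (B2M). Peptides cut by the proteasome are pumped into the endoplasmic reticulum by the transporter TAP1-TAP2 and loaded with the help of tapasin (TAPBP). NLRC5 is the coactivator of class I genes. It binds no DNA itself but docks on a set of factors assembled at the SXY module of class I promoters, where the RFX complex sits on the X1 box, CREB and ATF factors on the X2 box and NF-Y on the Y box, an inverted CCAAT. Upstream of that module lie sites for NF-kB and for interferon regulatory factors (IRF). Tumours are known to lose class I expression by mutation or by silencing of these genes.

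The promoters are shown because class I genes are known to share regulatory elements there. Whether these elements take part in the changes below was not tested. Below are the 200 bases before the transcription start of each of the 7 genes found in the RefSeq promoter table (GRCh38.p14), 5′ to 3′ on the strand of the gene. HLA-E and NLRC5 have no entry in it. The windows are chr6:31357180-31357379 (minus strand) for HLA-B, chr6:31272093-31272292 (minus) for HLA-C, chr6:29723234-29723433 (plus) for HLA-F, chr15:44711317-44711516 (plus) for B2M, chr6:32853705-32853904 (minus) for TAP1, chr6:32838740-32838939 (minus) for TAP2 and chr6:33314079-33314278 (minus) for TAPBP. The table lists 2 starts for TAP1, and the upstream one is shown. Gene positions given later come from GENCODE, whose starts differ from those in the RefSeq table. By GENCODE, the windows of HLA-F, TAP1 and TAPBP lie wholly within the gene. The windows of HLA-B, HLA-C, B2M and TAP2 overlap the start of the gene. The letters shown can thus include transcribed sequence. Capitals mark every match, on either strand, to the IRF core AANNGAAA, to the X2 box core TGACG, to CCAAT and to the NF-kB consensus. HLA promoters differ between people, and these are the reference alleles, not those of Hs578T.

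HLA-B: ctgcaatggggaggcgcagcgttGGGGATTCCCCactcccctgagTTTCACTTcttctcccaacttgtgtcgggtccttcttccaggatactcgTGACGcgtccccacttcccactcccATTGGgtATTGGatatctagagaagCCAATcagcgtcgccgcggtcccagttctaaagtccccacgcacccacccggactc
HLA-C: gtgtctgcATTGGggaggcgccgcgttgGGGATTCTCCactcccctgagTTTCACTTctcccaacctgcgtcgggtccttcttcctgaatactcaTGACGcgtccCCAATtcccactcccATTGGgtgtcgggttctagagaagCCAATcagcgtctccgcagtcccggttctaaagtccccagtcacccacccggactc
HLA-F: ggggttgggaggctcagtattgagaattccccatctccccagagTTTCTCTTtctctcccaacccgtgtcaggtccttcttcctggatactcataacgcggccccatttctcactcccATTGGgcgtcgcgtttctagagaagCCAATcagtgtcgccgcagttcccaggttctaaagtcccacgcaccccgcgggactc
B2M: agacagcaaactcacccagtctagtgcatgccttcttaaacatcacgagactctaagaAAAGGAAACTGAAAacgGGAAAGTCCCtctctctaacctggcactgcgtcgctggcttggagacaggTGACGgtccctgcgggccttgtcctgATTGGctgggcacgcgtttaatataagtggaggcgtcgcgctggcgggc
TAP1: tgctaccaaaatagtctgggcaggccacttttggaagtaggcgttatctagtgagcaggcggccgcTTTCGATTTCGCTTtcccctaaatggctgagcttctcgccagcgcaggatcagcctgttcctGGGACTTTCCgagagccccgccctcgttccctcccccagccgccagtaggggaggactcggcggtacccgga
TAP2: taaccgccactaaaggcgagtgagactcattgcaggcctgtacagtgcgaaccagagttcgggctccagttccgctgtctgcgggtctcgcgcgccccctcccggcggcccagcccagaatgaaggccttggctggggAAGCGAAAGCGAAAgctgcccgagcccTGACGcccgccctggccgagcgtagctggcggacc
TAPBP: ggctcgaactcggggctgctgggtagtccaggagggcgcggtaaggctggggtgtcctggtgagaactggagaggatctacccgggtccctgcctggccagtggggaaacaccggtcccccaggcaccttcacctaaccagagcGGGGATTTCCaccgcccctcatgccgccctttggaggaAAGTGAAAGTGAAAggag

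The IRF core was present in all 7 windows, against 16.1% of the 35116 promoter windows of the same length in that table. In B2M, TAP1, TAP2 and TAPBP it occurred as 2 overlapping copies, which appear as 1 run of capitals. The NF-kB consensus was matched in 5 of the 7 (8.14% of all windows), in HLA-B, HLA-C, B2M, TAP1 and TAPBP, and TGACG in 4 of the 7 (18.4% of all windows). CCAAT was matched in 4 of the 7, in HLA-B, HLA-C, HLA-F and B2M, and was the most common of these motifs elsewhere (28.0% of all windows). HLA-B, HLA-C and B2M also held TGACG followed after 20 or 21 bases by ATTGG, the inverted CCAAT. That arrangement was read off these promoters and then counted, and 0.128% of all windows had it. HLA-F had ATTGG at the matching place, 82 bases before its RefSeq start, but no TGACG. A match is a description of the letters and not a bound site.

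With TFCP2L1, 6 of the 9 genes rose, 0 fell and 3 did not pass the test. HLA-B, HLA-C, HLA-E, B2M, TAP1 and TAPBP were each 1.26 to 1.58-fold higher, while HLA-F, TAP2 and NLRC5 were not called. Over all genes tested 23.5% were called higher and 23.9% lower, 47.5% in either direction (edgeR quasi-likelihood test, Benjamini-Hochberg adjusted p under 0.05). The median log2 fold change of the 9 genes was 0.42, beside -0.002 over all genes tested. The 9 genes were chosen with earlier results of these data known, so their contrast with all genes is not independent evidence. Fold changes are overexpression over empty throughout. CPM are counts scaled to the size of the library, used for differences, and TPM, which are also scaled to transcript length, are used for levels between genes. In CPM, both overexpressing libraries lay above both empty ones for 8 of the 9 genes. Among all genes tested this was so for 36.6%, the reverse for 37.1%, and either for 73.7%. In TPM it held for 7 of the 9 genes, against 32.8% of all genes tested. At an adjusted p under 0.01, 6 of the 9 were still called, all higher. Among all genes tested 17.3% were called higher at that threshold, 18.1% lower and 35.4% in either direction.

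Libraries held 18960674 to 26355502 estimated counts. For TFCP2L1 itself the empty libraries gave 12 and 19 counts and the overexpressing libraries 4623 and 5069 counts, so all 4 libraries went with their labels. Of the mesenchymal markers of the line, VIM, FN1, CDH2, COL1A1, SPARC and CAV1 all had at least 174.6 CPM in every library, and all 6 were called, VIM and CDH2 higher and the other 4 lower, with COL1A1 at a log2 fold change of -1.17. Of 11 hormone receptor and luminal markers, PGR had 0 counts in any library and ESR1, EPCAM and CDH1 under 1 CPM, but KRT18 had 192.9 to 320.2 CPM and was called lower. ERBB2 (47.2 and 46.6 against 85.7 and 87.8 CPM) and FOXA1 were called higher, MUC1 lower and GATA3 not. The endothelial markers PECAM1 and VWF were both called lower (log2 fold change -1.59 and -3.16). Among 11 leukocyte markers, whose cells carry abundant class I transcripts, MS4A1 was at 0 in every library and PTPRC, the pan-leukocyte marker, had 1 to 3 counts per library. Their summed level was 46.5 and 49.0 TPM in empty and 89.2 and 85.2 TPM in overexpressing libraries, a rise carried by CD68 alone. Without CD68 the other 10 summed to 13.25 and 13.9 TPM in empty and 8.31 and 6.79 TPM in overexpressing libraries. Of the 4 markers tested, CD68 rose, CSF1R and ITGAM fell and CD14 did not pass the test. The part of these marker changes in the results below was not tested.

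**Figure D1:**
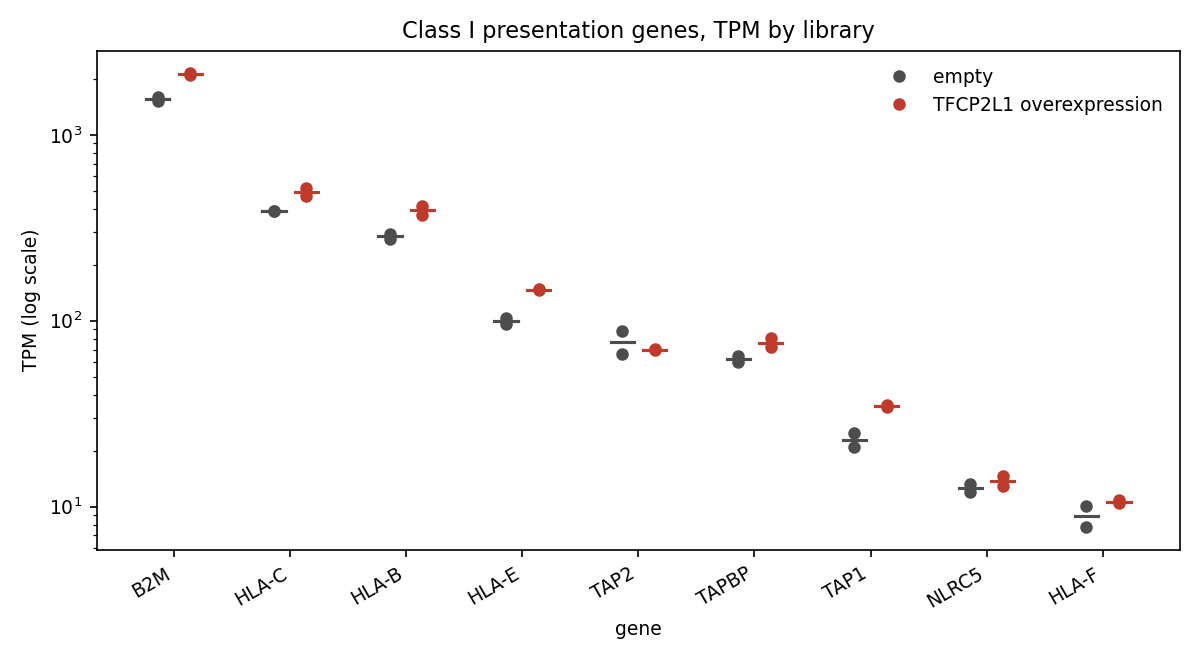
TPM (log scale) of the 9 class I presentation genes in each library, grey for empty and red for TFCP2L1 overexpression, with a line at the mean of 2 libraries. B2M is highest at 1529 to 2142 TPM and HLA-F is among the lowest at 7.78 to 10.8 TPM, and the red points lie above the grey ones for 7 of the 9 genes.

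In levels per length, the order over the 4 libraries was B2M, HLA-C, HLA-B, HLA-E, TAP2, TAPBP, TAP1, NLRC5 and HLA-F. B2M ran from 1529 to 2142 TPM, HLA-C from 391 to 517 TPM, HLA-B from 276 to 416 TPM and HLA-E from 96.0 to 147 TPM. The ranges of HLA-C and HLA-B overlapped across the 4 libraries, and so did those of TAP2 (66.0 to 87.6 TPM) and TAPBP (59.7 to 80.4 TPM). TAP1 had 21.1 to 35.2 TPM, NLRC5 12.0 to 14.5 TPM and HLA-F 7.78 to 10.8 TPM. B2M, HLA-C, HLA-B and HLA-E were thus the 4 most abundant transcripts of the set, and the coactivator NLRC5 and HLA-F the scarcest.

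Among the heavy chains, HLA-B (ENSG00000234745), a classical and highly polymorphic presenter of peptides to T cells, had 202 and 199 CPM in empty cells and 300.5 and 332 CPM with TFCP2L1. The groups were well apart, and the log2 fold change of 0.66 (SE 0.06, edgeR adjusted p = 7.76e-07) was the largest of the 9 in this fit. That rank depended on the unit and the libraries. On the log2(TPM + 0.1) scale HLA-B was at 0.47, below HLA-E (0.56) and TAP1 (0.605). Without empty replicate 2 it was at 0.65, below TAP1 (0.70). HLA-C (ENSG00000204525), a classical chain that is also a main ligand of killer-cell inhibitory receptors, went from 332 and 337 to 398 and 446 CPM. It rose 1.26-fold (log2 fold change 0.33, SE 0.06, edgeR adjusted p = 0.000462), the smallest of the 6 rises. HLA-E (ENSG00000204592), a little-varying chain that presents leader peptides of other class I chains to the natural killer receptor CD94-NKG2A, had 169 and 157 CPM in empty and 232 and 252 CPM in overexpressing cells. Its rise was 1.48-fold (log2 fold change 0.57, SE 0.06, edgeR adjusted p = 4.91e-06). HLA-F (ENSG00000204642), a non-classical chain that can reach the surface without peptide, was scarce, with 59.1 and 68.9 counts against 89.2 and 117 counts. Its 2.54 and 3.64 CPM lay below the 3.74 and 4.45 CPM of the overexpressing libraries only narrowly, and the difference did not pass the test (log2 fold change 0.42, 95% interval -0.08 to 0.93, edgeR adjusted p = 0.159). Without empty replicate 1 its log2 fold change was 0.17 and without empty replicate 2 it was 0.70, not called in either case.

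HLA genes are near-identical in much of their length, and their deposited counts are fractional, so the division of reads among them is uncertain. In GENCODE 29 (GRCh38) the span of HLA-B on the minus strand of chromosome 6, 31269491 to 31357188, also reaches over 2640 bases of HLA-C (31268749 to 31272130, minus strand). To remove that division, counts of all 18 class I HLA genes and pseudogenes were summed into 1 feature (chosen after seeing the data). This sum gave 1091 and 1082 CPM without TFCP2L1 and 1387 and 1530 CPM with it, and rose by a log2 fold change of 0.43 (SE 0.06, 95% interval 0.30 to 0.55, edgeR adjusted p = 3.45e-05). The summed class I HLA transcripts were therefore higher too.

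B2M (ENSG00000166710; GRCh38, chromosome 15, 44711487 to 44718877, plus strand), the light chain that pairs with class I heavy chains, had 750.3 and 780.4 CPM in empty cells and 1027 and 1116 CPM with TFCP2L1. It rose 1.40-fold (log2 fold change 0.49, SE 0.06, edgeR adjusted p = 8.76e-06). Unlike the HLA genes it has whole-number counts in all 4 libraries. The ratio of B2M to the sum of the 4 HLA genes in TPM was 1.93 and 2.06 without TFCP2L1 and 2.02 and 2.05 with it, and these ranges overlap. Those 4 genes held 64.3% to 67.6% of the CPM of all class I HLA genes and pseudogenes. Set against that whole sum in CPM, B2M was 0.688 and 0.721 without TFCP2L1 and 0.740 and 0.729 with it, which do not overlap.

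The mix of heavy chains depended on the unit. In CPM, HLA-B was 0.61 and 0.59 of HLA-C in empty and 0.755 and 0.744 in overexpressing libraries, which do not overlap. In TPM the ratio was 0.75 and 0.71 without TFCP2L1 and 0.88 and 0.72 with it, which do overlap. HLA-E made up 13.0% and 12.4% of the summed TPM of the 4 HLA genes in empty and 14.0% and 14.1% in overexpressing libraries. These ratios and shares were not tested.

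**Figure D2:**
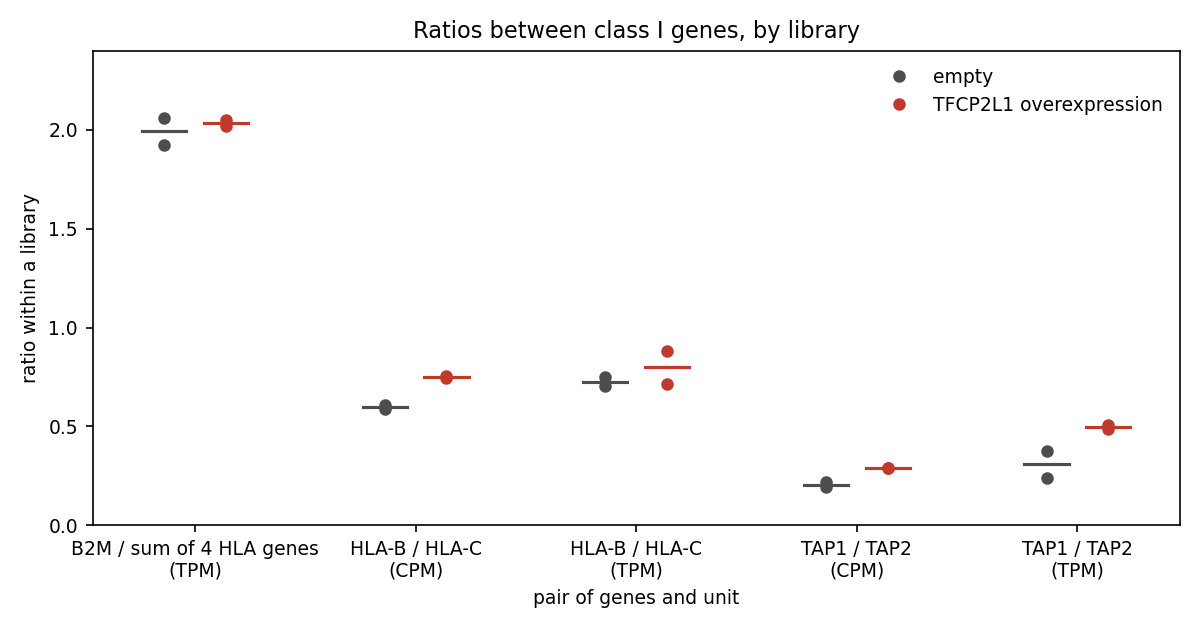
Ratios between class I genes within each library, with grey points for empty, red for TFCP2L1 overexpression and a line at the mean of 2 libraries. B2M over the 4 summed HLA genes in TPM lies at 1.92 to 2.06 with overlapping groups, HLA-B over HLA-C separates the groups in CPM but not in TPM, and TAP1 over TAP2 separates them in both units.

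The subunits of the peptide transporter differed. TAP1 (ENSG00000168394; GRCh38, chromosome 6, 32845209 to 32853978, minus strand) had 32.2 and 36.9 CPM in empty cells and 52.5 and 52.2 CPM with TFCP2L1. It rose 1.52-fold (log2 fold change 0.60, SE 0.09, edgeR adjusted p = 4.85e-05). TAP2 (ENSG00000204267; GRCh38, chromosome 6, 32821833 to 32838780, minus strand), its obligate partner, had 168 and 169 CPM in empty and 179.8 and 179.6 CPM in overexpressing cells. That is a log2 fold change of 0.09 (95% interval -0.03 to 0.21, edgeR adjusted p = 0.21), which was not called. On the log2(TPM + 0.1) scale it was -0.12, with TPM of 87.6 and 66.0 in empty against 69.6 and 70.4 in overexpressing libraries. The ratio of TAP1 to TAP2 in TPM was 0.24 and 0.38 without TFCP2L1 and 0.51 and 0.49 with it, so the scarcer subunit came closer to the more abundant one. In the CPM ratio the same order held, with 0.19 and 0.22 against 0.29 in both overexpressing libraries.

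In GENCODE 29 the whole TAP1 gene lies within the span of PSMB9 on the opposite strand, and the whole TAP2 gene within the span of AL669918.1 on the same strand. No source used here says whether counting used strand, so reads of TAP1 and PSMB9 cannot be told apart with certainty. For TAP2 and AL669918.1, which had 1348 counts summed over the 4 libraries, strand could not separate the reads. Both overlaps also limit the ratio of TAP1 to TAP2. PSMB9, which shares a promoter region with TAP1 and encodes an immunoproteasome subunit, had 463 and 401 counts in empty libraries and 651 and 793 counts in overexpressing ones.

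Tapasin, TAPBP (ENSG00000231925; GRCh38, chromosome 6, 33299694 to 33314387, minus strand), holds empty class I molecules at the transporter and edits their peptides. It had 134 and 146 CPM in empty and 185 and 177 CPM in overexpressing cells, a 1.30-fold rise (log2 fold change 0.37, SE 0.06, edgeR adjusted p = 0.000235). The groups did not overlap in CPM or in TPM.

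NLRC5 (ENSG00000140853; GRCh38, chromosome 16, 56989485 to 57083531, plus strand), the coactivator, was the 1 gene of the 9 whose groups overlapped in CPM. It had 24.9 and 22.4 CPM in empty and 24.9 and 24.5 CPM in overexpressing cells. The log2 fold change was 0.06 (95% interval -0.15 to 0.26, edgeR adjusted p = 0.642), and -0.01 without empty replicate 2. The interval reaches a 1.20-fold rise, which is below the point estimates of the 6 called genes. It still overlaps the intervals of HLA-C and TAPBP, which begin at 1.15-fold and 1.18-fold. A difference between NLRC5 and the called genes was not tested.

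In the authors' deposited table, the adjusted p of the 6 called genes ran from 8.7e-20 for HLA-B to 3.84e-06 for TAP1. It was 0.476 for HLA-F, 0.288 for TAP2 and 0.8 for NLRC5 in that table.

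**Figure D3:**
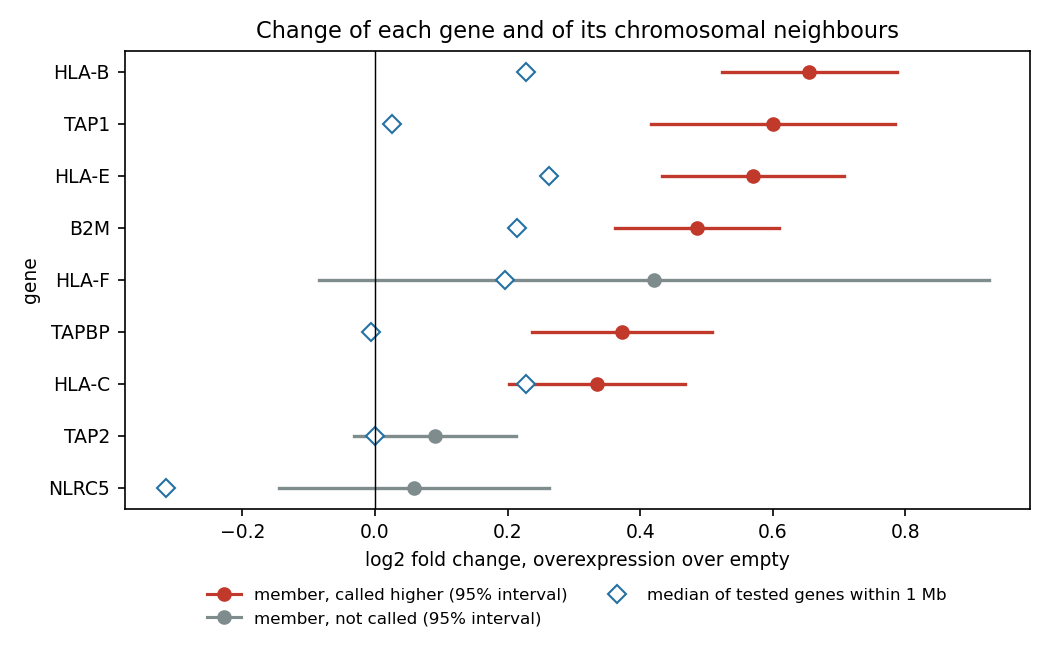
Log2 fold change of each gene with its 95% interval (red, called higher; grey, not called) and the median log2 fold change of tested protein-coding genes within 1 Mb of it (blue diamonds). HLA-B, TAP1 and HLA-E have the largest changes, and the diamond falls within the interval of HLA-C, HLA-F and TAP2 and below that of the other 6 genes.

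Of the 9 genes, 7 lie in the major histocompatibility complex on chromosome 6, where many other genes were higher too. Between HLA-F and TAPBP (GRCh38, chromosome 6, 29722775 to 33314387), 39 of 98 other tested protein-coding genes were called higher and 18 lower. That is 39.8% higher, beside 26.3% of all protein-coding genes tested, with a median log2 fold change of 0.20 beside 0.007. Within 1 Mb of HLA-E, 17 of 32 neighbours were higher and 2 lower with a median of 0.26, while within 1 Mb of TAPBP 7 of 31 were higher and 7 lower with a median of -0.01. Around TAP1 the median was 0.03, around HLA-B and HLA-C 0.23, around HLA-F 0.20 and around B2M on chromosome 15 0.21. Around NLRC5 on chromosome 16 it was -0.32, with 1 of 26 neighbours higher and 14 lower. Whole chromosomes differed in the same directions. On chromosome 15, 44.5% of 436 tested protein-coding genes were higher with a median of 0.19, on chromosome 16 33.2% of 611 were lower with a median of -0.13, and on chromosome 6 30.3% of 661 were higher with a median of 0.04. With the median of the neighbours subtracted, TAP1 kept a log2 difference of 0.57, HLA-B 0.43, TAPBP 0.38, HLA-E 0.31, B2M 0.27 and HLA-C 0.11. Whether the neighbourhood takes part in the rises was not tested.

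The rest of the class I pathway was examined as lists of genes, whose shares stand beside the 23.5% higher and 23.9% lower of all genes tested. Folding and loading partners in the endoplasmic reticulum had 4 of 11 higher (36.4%) and 2 lower (18.2%), and the median log2 change was 0.05. TAPBPL, a second peptide editor related to tapasin, rose from 8.21 ± 0.103 to 12.9 ± 0.78 CPM (edgeR adjusted p = 0.000899), and PDIA3, the disulfide isomerase bound to tapasin, from 576 ± 25.4 to 681 ± 17.6 CPM (adjusted p = 0.00262). CALR, the chaperone calreticulin that recruits it, fell from 1447 ± 13.8 to 1219 ± 43.2 CPM, and GANAB, a glucosidase that trims glycans for these chaperones, from 683 ± 9.33 to 582.5 ± 15.3 CPM. These are means ± SD over 2 libraries, as below. Without empty replicate 1 the count of risen genes was 1, and without empty replicate 2 it was 2, with 1 fallen.

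Of the peptide supply genes 4 of 17 rose (23.5%) and 5 fell (29.4%), shares near those of all genes tested. PSME2, a subunit of the interferon-inducible proteasome activator, rose from 114 ± 5.52 to 177 ± 15.8 CPM (edgeR adjusted p = 4.47e-06), and PSMB9 from 20.5 ± 0.94 to 28.8 ± 2.09 CPM (adjusted p = 0.000775). Other parts of that activator and of the immunoproteasome, named after their values were seen, were not called higher. PSME1 (log2 fold change -0.21, edgeR adjusted p = 0.0307) and PSMB10 (-0.69, adjusted p = 0.00182) fell. PSMB8 was not called (edgeR adjusted p = 0.0948). ERAP1, the aminopeptidase that trims peptides inside the endoplasmic reticulum, fell from 113 ± 3.41 to 80.9 ± 8.01 CPM (adjusted p = 0.00011), and the cytosolic peptidase NRDC from 217 ± 1.32 to 175 ± 1.21 CPM. The count of risen genes was 2 without empty replicate 1 and 9 without overexpression replicate 1, and that of fallen genes was 3 without empty replicate 2.

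Of the factors of the SXY module 1 of 9 rose (11.1%), 1 fell and 7 were not called. RFX5, the DNA-binding subunit of the RFX complex, rose from 38.3 ± 1.21 to 66.5 ± 1.75 CPM (edgeR adjusted p = 9.63e-07), a larger fold than that of any of the 9 class I genes. RFXANK, another subunit of the same complex, fell from 26.6 ± 0.44 to 20.4 ± 1.86 CPM (adjusted p = 0.00528). CIITA, the class II counterpart of NLRC5, named here after its value was seen, had 37.2 and 27.6 counts without and 25.0 and 27.3 counts with TFCP2L1 and was not called (adjusted p = 0.182).

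Upstream of class I genes, interferon signalling had 4 of 17 tested genes risen (23.5%) and 1 fallen (5.88%). IFNGR1, the ligand-binding chain of the interferon-gamma receptor, rose from 23.3 ± 0.74 to 46.3 ± 1.26 CPM (edgeR adjusted p = 3.04e-07). The interferon-alpha receptor chain IFNAR1 rose from 42.1 ± 0.75 to 54.8 ± 3.46 CPM and STAT2 rose by a log2 fold change of 0.43 (adjusted p = 0.00144). SOCS3, a feedback inhibitor of JAK-STAT signalling, fell from 30.7 ± 0.71 to 13.0 ± 0.15 CPM (adjusted p = 1.2e-07). IRF1, an interferon-induced transcription factor named after its value was seen, had 56.8 ± 6.58 against 63.95 ± 0.73 CPM and was not called (adjusted p = 0.101). Of the NF-kB genes 3 of 6 fell and 1 rose. NFKBIA, the inhibitor that is itself a target of the pathway, fell from 64.9 ± 5.53 to 30.9 ± 1.64 CPM, NFKB1 from 49.6 ± 0.16 to 30.8 ± 2.76 CPM and RELB from 13.4 ± 1.15 to 9.25 ± 0.57 CPM, while NFKB2 rose from 65.5 ± 2.03 to 90.5 ± 0.94 CPM. Without overexpression replicate 1 or overexpression replicate 2, 2 genes of interferon signalling were called lower.

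**Figure D4:**
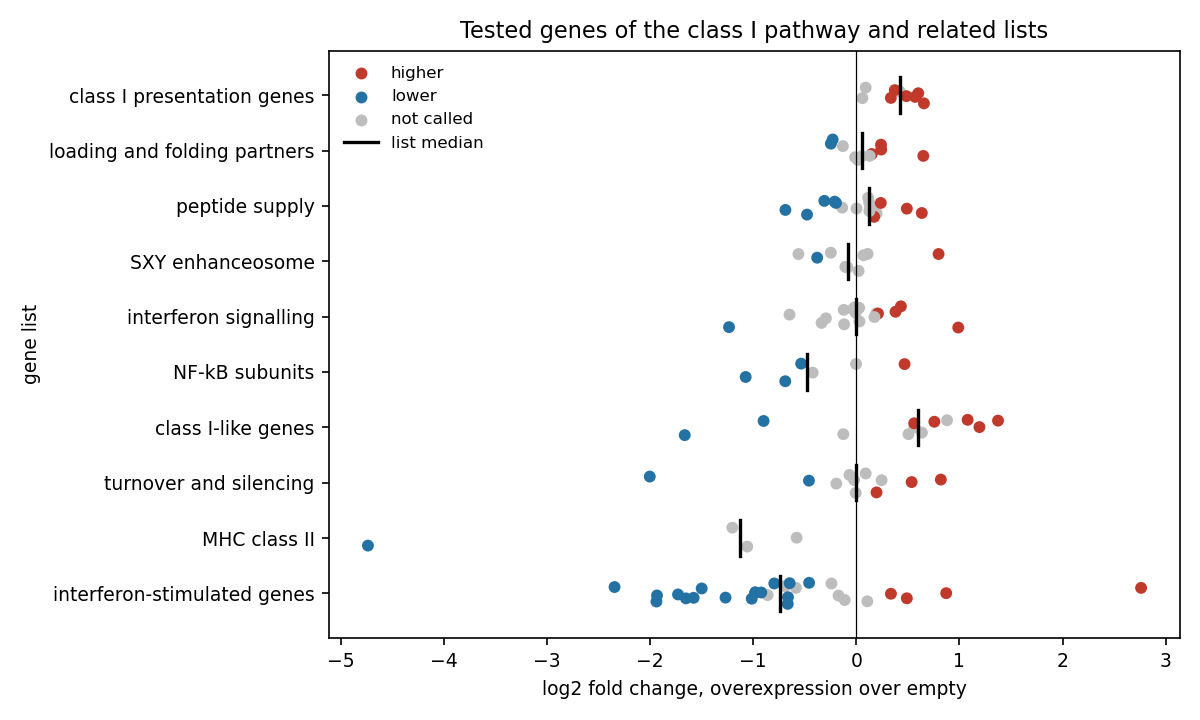
Log2 fold change of each tested gene in the class I set and in 9 related lists (red, called higher; blue, called lower; grey, not called), with a black line at each list median. The class I genes lie at 0 or above with a median of 0.42, while interferon-stimulated genes have 17 of 28 lower and a median of -0.74.

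Interferon-stimulated genes at large went the other way from the class I genes, with 17 of 28 fallen (60.7%), 4 risen (14.3%) and a median log2 fold change of -0.74. IFITM3 and IFITM1, antiviral membrane proteins, had log2 fold changes of -1.73 and -2.35. BST2, which tethers budding virus, fell from 59.2 ± 3.48 to 15.4 ± 1.77 CPM (edgeR adjusted p = 1.08e-09), and TRIM25, a ubiquitin ligase of the RIG-I pathway, from 172 ± 2.69 to 90.5 ± 0.25 CPM (adjusted p = 1.77e-08). PSMB9, counted above in peptide supply, was 1 of the 4 that rose. The others, named after their values were seen, were GBP4, IFIT1 and WARS1, with log2 fold changes of 2.76, 0.87 and 0.34. The rise of GBP4, from 1.28 ± 0.60 to 8.46 ± 0.82 CPM (edgeR adjusted p = 7.5e-07), was the largest change of the list in size. The list was written with results of these libraries already known, so its direction is not independent evidence.

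Of the relatives of the class I heavy chains 5 of 12 tested rose (41.7%), 2 fell (16.7%) and 5 were not called, with a median log2 fold change of 0.60. MICA, a stress ligand of the activating receptor NKG2D encoded near HLA-B, rose from 32.4 ± 0.90 to 68.6 ± 2.99 CPM (edgeR adjusted p = 5.57e-08). HFE, which binds the transferrin receptor and pairs with B2M, rose from 7.32 ± 0.42 to 16.7 ± 0.30 CPM. MR1, which presents microbial vitamin metabolites, rose from 13.8 ± 0.96 to 23.2 ± 0.10 CPM. FCGRT, the B2M-bound neonatal Fc receptor, fell from 1.67 ± 0.48 to 0.52 ± 0.08 CPM (adjusted p = 0.00364). RAET1L had 0 counts in every library. Without empty replicate 2 the count of fallen genes was 0.

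MHC class II genes, normally confined to antigen-presenting cells, were near silent. Of 12 genes 4 passed the filter on low counts, and 1 fell. HLA-DRB1, the beta chain of HLA-DR, had 29 and 22 counts in empty libraries and 1 in each overexpressing library. The ratio of depth-scaled counts was 30.2-fold lower, with exact 95% bounds of 7.95 and 256 from counting error alone, and the edgeR adjusted p was 3.92e-05. The summed class II level was 10.5 and 6.60 TPM in empty and 3.27 and 3.46 TPM in overexpressing cells. The list had 2 fallen genes without empty replicate 2 and 3 without overexpression replicate 1.

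Genes that remove class I molecules or silence their genes had 3 of 11 risen (27.3%) and 2 fallen (18.2%), also near the shares of all genes tested. MARCHF4, a ubiquitin ligase that can send class I molecules to lysosomes, fell from 42.4 ± 0.18 to 10.6 ± 0.00125 CPM, a log2 fold change of -2.00 (SE 0.09, edgeR adjusted p = 5.34e-10). EZH2, the histone methyltransferase of Polycomb complex PRC2, rose from 53.3 ± 0.47 to 77.2 ± 1.49 CPM (edgeR adjusted p = 2.3e-05). Its partner SUZ12 rose from 72.4 ± 0.39 to 83.0 ± 5.70 CPM. SETDB1, a histone H3 lysine methyltransferase, rose from 20.7 ± 0.68 to 36.6 ± 0.51 CPM (edgeR adjusted p = 3.06e-06). In TPM the SETDB1 difference was smaller, with 17.85 ± 1.33 in empty and 19.97 ± 0.77 in overexpressing libraries. Without empty replicate 1 or overexpression replicate 1 the count of fallen genes was 1.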

How the data were processed

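RNA was sequenced from 4 libraries of Hs578T cells, 2 empty and 2 overexpressing TFCP2L1, grouped by their treatment labels and matched to columns by title. The authors deposited estimated counts and TPM per gene and library, per the file headers. The same deposited table holds the authors' log2 fold change, fold change as a ratio, p-value and adjusted p-value, which its name credits to DESeq2. Bowtie 0.12.2 and the mouse build mm9 are named in the submitters' processing notes, which does not go with human Ensembl gene IDs. The counter, strand setting and annotation are not given in the sources used here.

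Rounded counts were tested in R 4.3.3 by edgeR 4.0.16 (TMM, filterByExpr with a minimum count of 10, glmQLFit with robust = TRUE, glmQLFTest) over 16544 genes, with a Benjamini-Hochberg adjusted p under 0.05. Standard errors were obtained from each fold change and its F statistic, and 95% intervals use its moderated degrees of freedom. Positions come from GENCODE 29 by gene ID, which need not be the authors' annotation. Neighbours are tested protein-coding genes within 1 Mb. Scripts were tested on simulated data. Alternatives were 3 other scalings, other filters, DESeq2 1.42.0, limma 3.58.1 on voom values and on log2 TPM, a threshold of 0.01 and leaving out each library. Depth was 18960674 to 26355502 counts per library. The genes and lists were chosen with earlier results of these data known. Named genes of a list are its up to 4 called members with the smallest p and those with no counts in any library; others are marked where they are named. Some genes of the lists are not reported here by name.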

Additional observations from a re-analysis of the deposited data

How the results depend on the processing

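Under 3 other scalings, 2 other filters, DESeq2, limma-voom, a threshold of 0.01 and leaving out each library, the number of class I genes called higher was 6 and called lower 0 in each case. Without 1 library, log2 fold changes ran from 0.59 to 0.73 for HLA-B, 0.26 to 0.42 for HLA-C, 0.51 to 0.64 for HLA-E, 0.17 to 0.70 for HLA-F, 0.43 to 0.55 for B2M, 0.51 to 0.70 for TAP1, 0.09 to 0.10 for TAP2, 0.31 to 0.44 for TAPBP and -0.0117 to 0.15 for NLRC5, which reversed without empty replicate 2. TAP2 reversed on the log2(TPM + 0.1) and log2(TPM + 1) scales (-0.12 in both, not called) and the cause was not tested. With the median of neighbouring genes subtracted, HLA-B was 0.43, HLA-C 0.11, HLA-E 0.31, B2M 0.27 and NLRC5 0.37, by construction with no test. The HLA-C share of summed HLA, overexpression minus empty, was -2.58 percentage points in TPM and -4.855 in counts, a move whose cause was not tested.

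Counts in the short lists moved more. Called higher without 1 library were 1 to 5 folding partners and 2 to 9 peptide supply genes. Called lower were 1 to 3 folding partners, 3 to 6 peptide supply genes, 1 to 2 of interferon signalling, 0 to 2 class I relatives, 1 to 3 class II genes and 1 to 2 of turnover and silencing. At a threshold of 0.01, 3 peptide supply genes and 1 of turnover and silencing were lower; with DESeq2, 1 of turnover and silencing; without a filter, 3 class II genes, by testing more genes. Over all genes the counts stayed within 1.5 times, from 2866 to 4318 higher and 2980 to 4228 lower. Fits without 1 library leave a group with 1 sample, which is assumed to vary like the other group. Depth limits HLA-F and the class II genes, and 2 libraries a group limit all values. No paired analysis was possible because the labels give the groups no shared replicate numbers.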
